A study of Mus musculus with 12 samples.

Results

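The expression of 10 genes of cardiomyocyte calcium cycling was followed in 12 mouse hearts that did or did not express NOTCH2NLC with 98 GGC repeats. These genes, Atp2a2, Ryr2, Pln, Casq1, Casq2, Slc8a1, Camk2d, Jph2, Trdn and Hrc, were taken by symbol from a table of 25171 loci, and all 10 were found. Each was counted well enough to be tested in every comparison below.

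At every heartbeat, calcium that enters a cardiomyocyte opens the ryanodine receptor (Ryr2) of the sarcoplasmic reticulum, and the calcium released from this store drives contraction. The pump SERCA2 (Atp2a2), held in check by phospholamban (Pln), returns most of it to the store, and the sodium-calcium exchanger (Slc8a1) carries the rest out of the cell. Calsequestrin (Casq2) and the histidine-rich calcium-binding protein (Hrc) bind calcium inside the store, triadin (Trdn) anchors them to the receptor, junctophilin 2 (Jph2) holds the store against the surface membrane, and the kinase CaMKII delta (Camk2d) phosphorylates both phospholamban and the receptor.

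All mice carried a conditional transgene at the Rosa26 site, in which a stop sequence flanked by loxP sites precedes NOTCH2NLC-(GGC)98. EIIa-tg mice (E2a-transgenic in the labels) also carried EIIa-Cre, with which the transgene is expressed in all tissues from the embryonic stage. Their controls (EIIa-ctl) were littermates without this Cre. EIIa-tg and EIIa-ctl mice were taken at postnatal day 30. Myh6-tg mice carried Myh6-creERT2, a Cre that is made in cardiomyocytes under the promoter of alpha-myosin heavy chain and is switched on by tamoxifen. They received 3 intraperitoneal injections of tamoxifen in corn oil (75 mg per kg body weight) from day 60, every other day, and were taken at day 90. Myh6-ctl mice have the same genotype in the labels and were injected with corn oil alone, so that tamoxifen and active Cre went with the transgene in this model and cannot be told apart from it. Each group held 3 hearts of separate mice.

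Some labels and libraries need a caution before the values. EIIa-tg replicates 2 and 3 are given the genotypes e3a and e4a and were placed by their titles. A label on RNA extraction names brain, but the 8 contractile marker genes of cardiomyocytes summed to between 10771 and 35670 CPM (counts scaled to a common library total) and the 6 neural markers to between 10.95 and 45.2 CPM. Esr1, the estrogen receptor gene from which inducible Cre proteins take their ligand-binding part, had 2330, 1383 and 1030 CPM in the 3 Myh6-ctl hearts but 1.30, 2.52 and 1.00 CPM in the Myh6-tg hearts, against 0.408 to 1.23 CPM in the EIIa hearts. That difference goes against the shared genotype in the labels of the Myh6 groups, and it cannot be told apart from the difference in treatment. If the labels of the Myh6 groups were exchanged, the direction of every Myh6 value below would turn, and the labels do not settle this. Sqstm1, which encodes the p62 protein found in inclusions, had means of 375 CPM for EIIa-ctl and 1083 CPM for EIIa-tg, and of 664 CPM for Myh6-ctl and 1929 CPM for Myh6-tg, higher in each heart labelled transgenic than in any of its controls in both models. Y-linked genes were counted (4224 to 7307 counts) in replicate 1 of each group, with at most 2 counts in every other heart, so that each group held 1 heart of this kind. Myh6-tg replicate 1 stood apart from replicates 2 and 3 in several of the 10 genes, and results that turn on it are given with and without it.

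Between 38343106 and 50969834 counts were assigned to genes in each heart, and 3 counts, the floor used, equal 0.0589 to 0.0782 CPM (counting error only). The share of counts on the 13 mitochondrially encoded genes was 35.1% ± 1.36 for EIIa-ctl, 30.7% ± 1.99 for EIIa-tg, 35.9% ± 3.56 for Myh6-ctl and 17.3% ± 1.62 for Myh6-tg (SD, n = 3). CPM values are scaled by TMM factors over the 12 hearts. Changes are log2 fold changes with standard errors (SE) from edgeR's quasi-likelihood test on the counts, with Benjamini-Hochberg adjustment over all genes tested, and a gene is said to have risen or fallen at an adjusted p under 0.05. In these bulk hearts, fewer cardiomyocytes and less RNA per cardiomyocyte cannot be told apart.

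The upstream sequences of the genes with the largest falls, Hrc and Pln, are shown with that of Casq2, the only 1 of 8 with a MEF2 motif. The set of RefSeq start regions (GRCm38.p6) used here held 8 of the 10 genes, and Atp2a2 and Trdn were not among them. The sequences read 5′ to 3′ on the strand of the gene, and all 3 genes lie on the plus strand. Hrc is shown at chr7:45335159-45335268, Pln at chr10:53337576-53337666 and Casq2 at chr3:102086305-102086414, each ending before the first base annotated as transcribed. Capitals mark GATAA (bound by GATA factors), CAGCTG (bound by E-box factors) or the MEF2 motif.
Hrc: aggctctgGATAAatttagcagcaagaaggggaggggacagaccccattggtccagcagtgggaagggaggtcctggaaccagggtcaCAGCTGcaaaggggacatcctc
Pln: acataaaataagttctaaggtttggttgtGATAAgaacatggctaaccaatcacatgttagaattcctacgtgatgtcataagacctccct
Casq2: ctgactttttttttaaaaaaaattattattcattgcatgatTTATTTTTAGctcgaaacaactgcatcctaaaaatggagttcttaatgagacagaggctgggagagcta
Over windows of 300 bases around the start (Pln has its CAGCTG after the start, outside the stretch shown), read on both strands, GATAA was found in 4 of the 8 genes (Hrc, Pln, Casq1 and Slc8a1), against 25.4% of 32851 RefSeq promoters. CAGCTG, whose letters are the same on both strands, was found in 4 of the 8 (Hrc, Pln, Casq1 and Jph2), against 16.3% of promoters. The MEF2 motif, named for a family of muscle transcription factors, was found in Casq2 alone, at 69 to 60 bases before the start on both strands, and in 3.19% of promoters. The CArG motif of serum response factor (1.63% of promoters) and CATTCC, bound by TEAD factors (14.7%), were found in 0 of the 8, and TATAAA (13.6%) in Pln alone. A gene was counted if any of its start regions held the motif, while the percentages are shares of single promoters, so the figures are not fully alike. These are matches of letters and were not tested as sites.

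Levels between genes were compared on the authors' FPKM, which is scaled by transcript length. In EIIa-ctl hearts Pln (2782 ± 225 FPKM, SD, n = 3) stood above Atp2a2 (2006 ± 235), followed by Casq2 (268 ± 15.7), Hrc (182 ± 17.7), Jph2 (67.2 ± 4.61) and Trdn (41.3 ± 1.96). Ryr2 (30.5 ± 3.52 FPKM) and Camk2d (26.9 ± 2.74) overlapped between hearts, and Slc8a1 (9.21 ± 0.344) and Casq1 (4.13 ± 0.423) closed the order. Among nuclear-encoded loci Pln ranked 8 in every EIIa-ctl heart and Atp2a2 between 11 and 13. The order was the same in Myh6-ctl hearts, where Jph2 also overlapped Trdn, and in EIIa-tg hearts neighbouring genes overlapped for Pln and Atp2a2, Hrc and Jph2, Jph2 and Trdn, and Camk2d and Ryr2, with the mean of Camk2d above that of Ryr2. In Myh6-tg hearts Atp2a2 (535 ± 188 FPKM), Pln (500 ± 449) and Casq2 (371 ± 46.8) came together at the top and overlapped in sequence, while Hrc (13.2 ± 11.9) dropped to the place above Casq1 and overlapped Slc8a1 (21.5 ± 17.7). Pln then ranked between 34 and 245, and Hrc between 2115 and 6730 where it had ranked between 239 and 559 in Myh6-ctl hearts.

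**Figure D1:**
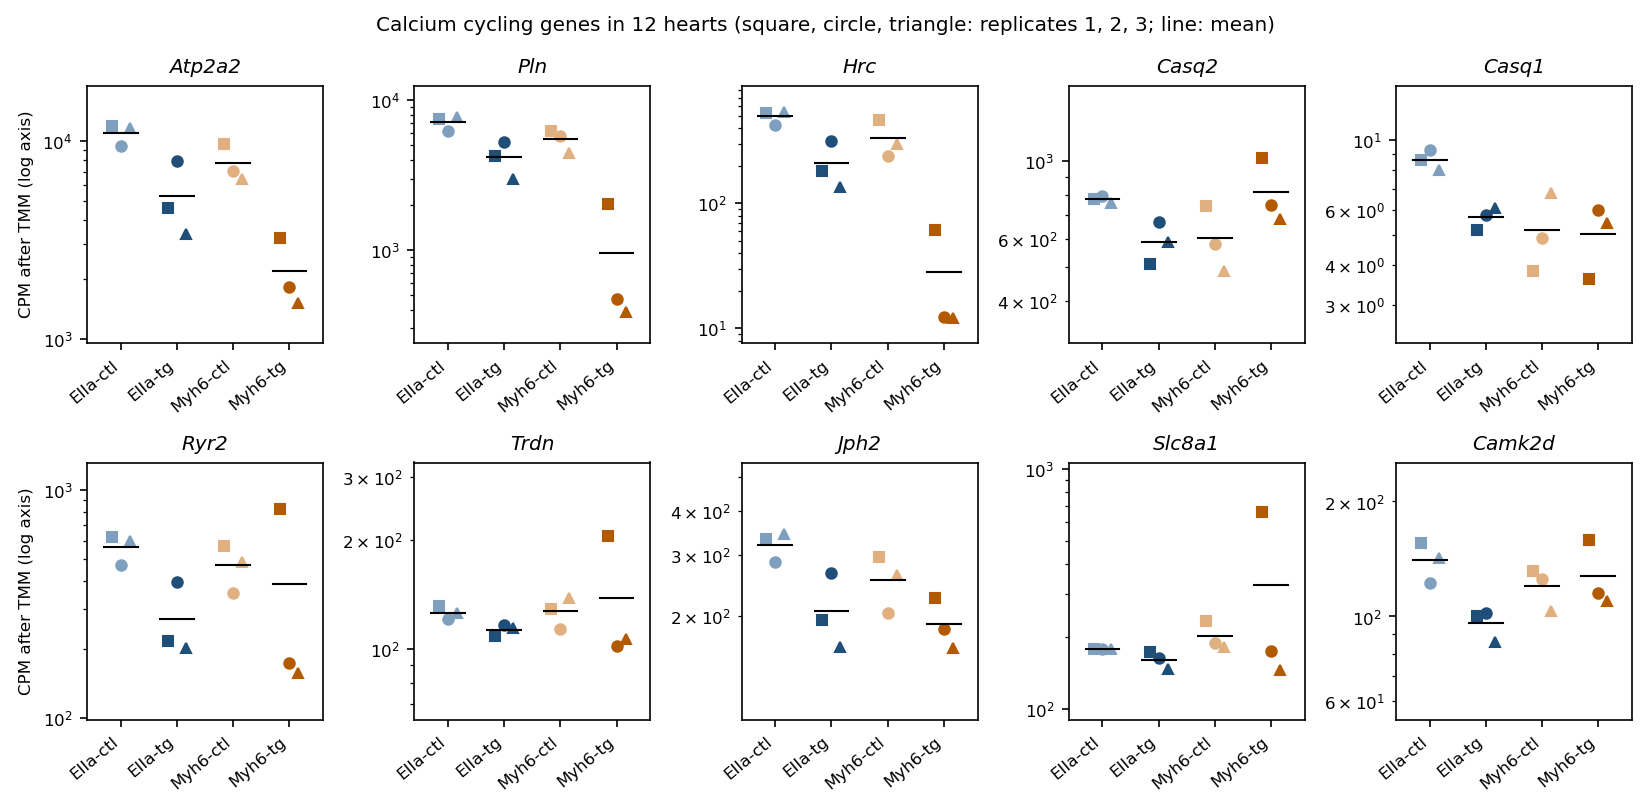
Each panel plots 1 gene in CPM after TMM on a log axis (the axes differ between panels), with a symbol for each of 3 hearts per group and a line at the mean. Hrc, Pln and Atp2a2 are lowest in Myh6-tg hearts, all 10 genes are lower in each EIIa-tg heart than in any EIIa-ctl heart, and Myh6-tg replicate 1 (square) lies far above replicates 2 and 3 in Slc8a1, Ryr2, Hrc and Pln.

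EIIa-tg hearts had lower means than their controls for all 10 genes, from 42.4% of the control mean (Hrc) to 90.7% (Slc8a1). Hrc, Ryr2, Jph2, Casq1 and Camk2d fell (5 of 10), where 8.3% of the 14908 genes tested fell. Atp2a2, Pln, Casq2, Slc8a1 and Trdn did not pass. All 10 genes had each EIIa-tg heart below each control heart, against 20.8% of genes tested, and their median log2 fold change was -0.62, against 0.02 for all genes. At the stricter thresholds of the methods, an adjusted p under 0.01 and a 2-fold change, edgeR called 0 of the 10 and 0.0% of genes tested. By edgeR 8 of the 10 had an unadjusted p under 0.05 (34.9% of genes tested did). At the stricter thresholds DESeq2 called Ryr2 alone and limma on FPKM called 0. The share of all genes at these thresholds was taken for edgeR only, so the DESeq2 and limma calls stand without one. The count of 5 rests on single hearts. It was 0 without EIIa-ctl replicate 1, EIIa-ctl replicate 3, EIIa-tg replicate 1 or EIIa-tg replicate 3, it was 3 without EIIa-ctl replicate 2, and it was 8 without EIIa-tg replicate 2, the transgenic heart nearest to the controls. DESeq2 also gave 8, where 3491 of 17238 genes were called. By edgeR the number of all genes called moved with the count of members, from 2527 of 14908 in the 6 hearts. It was 0 of 15359 without EIIa-ctl replicate 1 and 1 of 15380 without EIIa-ctl replicate 3. It was 0 of 15194 without EIIa-tg replicate 1 and 133 of 15171 without EIIa-tg replicate 3. It was 1794 of 15358 without EIIa-ctl replicate 2 and 4079 of 15310 without EIIa-tg replicate 2. Where the count of members was 0, the log2 fold change of Hrc was between -1.20 and -0.995 and that of Ryr2 between -1.01 and -0.87.

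In Myh6-tg hearts Atp2a2, Pln and Hrc fell (3 of 10), where 9.38% of the 15298 genes tested fell, and their hearts did not overlap (19.6% of genes tested were lower without overlap). The other 7 overlapped their controls and did not pass the test, and the median of the 10 was -0.16, against 0.03 for all genes. At the thresholds of the methods edgeR called 0 of the 10, against 3.97% of genes tested. By edgeR 3 had an unadjusted p under 0.05 (34.1% of genes tested did). At the thresholds of the methods DESeq2 called Atp2a2 and Hrc, and limma on FPKM called Atp2a2, Pln and Hrc. For DESeq2 and limma the share of all genes at these thresholds was not taken, so these calls have no background beside them. Without Myh6-ctl replicate 1 the count of 3 became 0, without Myh6-ctl replicate 2 or 3 it was 2 (Atp2a2 and Hrc), and without Myh6-tg replicate 2 or 3 Hrc alone was called. Without Myh6-tg replicate 1 it was 4, since Ryr2 was then called as well. Of all genes, 2805 of 15298 were called in the 6 hearts. Without Myh6-ctl replicate 1, 2 or 3 the number was 798 of 15931, 1755 of 15921 and 1637 of 15863. Without Myh6-tg replicate 1 it rose to 4269 of 15967, and without replicate 2 or 3 it was 982 of 15753 and 969 of 15713.

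**Figure D2:**
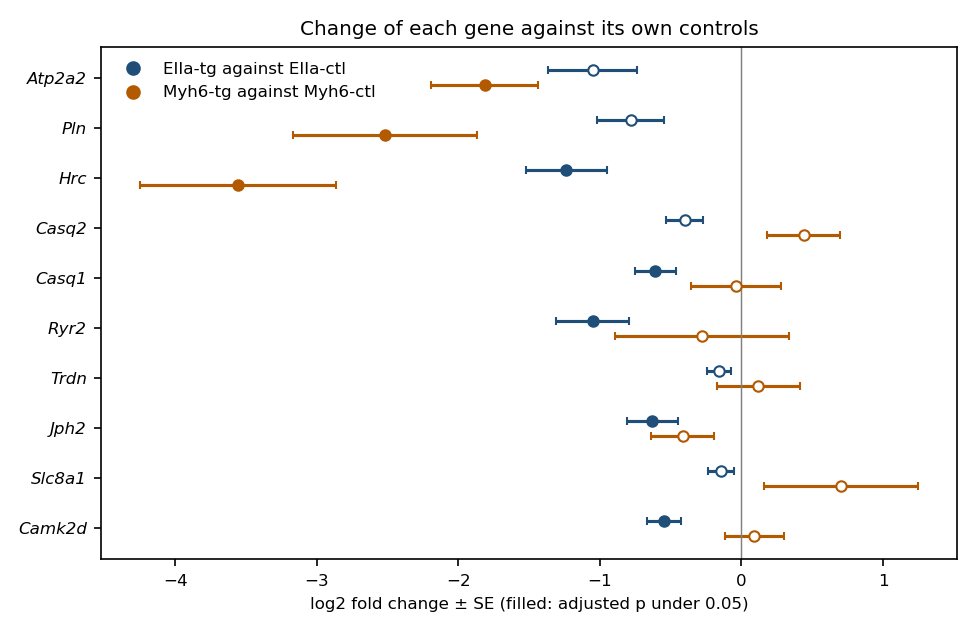
Each point is the log2 fold change of a gene in EIIa-tg (blue) or Myh6-tg (orange) hearts against their own controls, with its SE from 3 hearts against 3, and filled points have an adjusted p under 0.05. In EIIa-tg hearts all 10 values are below 0 and 5 are filled, while in Myh6-tg hearts Hrc, Pln and Atp2a2 are filled and the other 7 lie between -0.42 and 0.70.

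The pump and its inhibitor came first by level. Atp2a2 (chromosome 5, 122453513 to 122502225 on GRCm38) encodes SERCA2, which refills the store. It was counted at 11850, 9412 and 11659 CPM in the EIIa-ctl group and at 4575, 7903 and 3399 CPM in the EIIa-tg group. The log2 fold change of -1.05 (SE 0.31, adjusted p = 0.0521) did not pass. No EIIa-tg heart reached the controls, and replicate 2 lay closest to them. Without EIIa-tg replicate 2 the value was -1.47 (adjusted p = 0.00238), and with any other heart left out it was between -1.15 and -0.81 (adjusted p from 0.0772 to 0.155). In Myh6-ctl hearts Atp2a2 was at 9679, 7093 and 6430 CPM, and in Myh6-tg hearts it fell to 3237, 1838 and 1526 CPM, or 28.4% of the control mean (log2 fold change -1.81, SE 0.38, adjusted p = 0.0178). All 3 Myh6-tg hearts lay below all 3 controls.

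Pln (chromosome 10, 53337667 to 53345987), the small membrane protein that slows the pump until it is phosphorylated, was at 7486, 6268 and 7781 CPM in EIIa-ctl and 4277, 5267 and 2978 CPM in EIIa-tg hearts. The log2 fold change of -0.78 did not pass (SE 0.24, adjusted p = 0.0533). In Myh6-tg hearts Pln fell from 6261, 5734 and 4457 CPM to 2019, 475 and 384 CPM, or 17.5% of the control mean (log2 fold change -2.52, SE 0.65, adjusted p = 0.0341). Replicate 1 kept several times the level of the other Myh6-tg hearts and was still below every control, and without it the value was -3.68 (adjusted p = 0.000848). Pln lies within Cep85l on the opposite strand. Cep85l had at most 1505 counts in a heart, and Pln at least 20270.

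The balance of inhibitor and pump was read as the ratio of their FPKM within a heart, which needs no scaling between hearts. The Pln to Atp2a2 ratio was 1.27, 1.46 and 1.45 for EIIa-ctl and 1.89, 1.33 and 1.97 for EIIa-tg. The groups overlapped, and the difference of 0.29 in the mean log2 ratio did not pass (p = 0.3, adjusted p = 0.4 over 4 ratio tests, two-sided exact permutation). In Myh6-ctl hearts the ratio was 1.39, 1.59 and 1.52, and in Myh6-tg hearts 1.37, 0.547 and 0.579. All 3 Myh6-tg hearts were below their controls, replicate 1 only just, with a difference of -0.99 on the log2 scale (p = 0.1, adjusted p = 0.2, two-sided exact permutation). With 3 hearts against 3, p cannot be smaller than 0.1.

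Of the proteins that bind calcium inside the store, Hrc changed most. Hrc (chromosome 7, 45335290 to 45338974) had 527, 425 and 543 CPM in EIIa-ctl and 181, 316 and 136 CPM in the EIIa-tg group, a fall to 42.4% of the control mean (log2 fold change -1.24, SE 0.28, adjusted p = 0.0281). In Myh6-tg hearts it fell from 463, 241 and 298 CPM to 60.8, 12.3 and 12.2 CPM, or 8.51% of the control mean (log2 fold change -3.56, SE 0.69, adjusted p = 0.0146). Hrc was the largest fall of the 10 genes in both models. Each transgenic heart lay below each of its controls, and without Myh6-tg replicate 1 the value was -4.77 (adjusted p = 0.000538).

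Casq2 (chromosome 3, 102086415 to 102146514), the cardiac calsequestrin and the main calcium buffer of the store, went the other way in Myh6-tg hearts without passing the test. It had 776, 793 and 758 CPM in EIIa-ctl and 508, 667 and 589 CPM in EIIa-tg hearts (log2 fold change -0.40, SE 0.13, adjusted p = 0.0661). In Myh6-ctl hearts it had 743, 579 and 486 CPM, and in Myh6-tg hearts 1017, 749.8 and 683 CPM (0.44, SE 0.26, adjusted p = 0.276). Myh6-tg replicate 3 lay below Myh6-ctl replicate 1, and so the groups overlapped. When hearts were scaled by total counts alone, the Myh6 value became 0.83 (adjusted p = 0.0282), on a scale where the median of all genes was 0.43. On the authors' FPKM the groups did not overlap, with 183 to 248 for Myh6-ctl and 343 to 425 for Myh6-tg, and limma on log2(FPKM + 1) gave 0.84 (adjusted p = 0.0172). With a term for the replicate number in the fit (the replicate block), the edgeR value was 0.44 (adjusted p = 0.137).

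Casq1 (chromosome 1, 172209894 to 172219868), the calsequestrin of fast skeletal muscle, was rare in these hearts. It had 8.63, 9.25 and 8.02 CPM in EIIa-ctl and fell to 5.18, 5.76 and 6.08 CPM in EIIa-tg hearts (log2 fold change -0.61, SE 0.14, adjusted p = 0.0307). It had 3.84, 4.87 and 6.77 CPM in Myh6-ctl and 3.63, 5.99 and 5.45 CPM in Myh6-tg hearts (-0.04, SE 0.32, adjusted p = 0.949), which overlapped. Its share of the summed FPKM of both calsequestrins was 1.51% ± 0.0707 (SD, n = 3) for EIIa-ctl and 1.32% ± 0.127 for EIIa-tg (p = 0.1, adjusted p = 0.2, two-sided exact permutation). For Myh6-ctl it was 1.25% ± 0.597 and for Myh6-tg 0.890% ± 0.348 (p = 0.4, adjusted p = 0.4, by the same exact test). Skeletal muscle markers were near absent, with the fast myosins Myh1, Myh2 and Myh4 between 0 and 0.285 CPM and 10 markers summing to at most 13.4 CPM outside the Myh6-tg hearts. In Myh6-tg hearts the sum was between 6.58 and 51.02 CPM, of which Tnnt3 made 48.7 CPM in replicate 1.

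**Figure D3:**
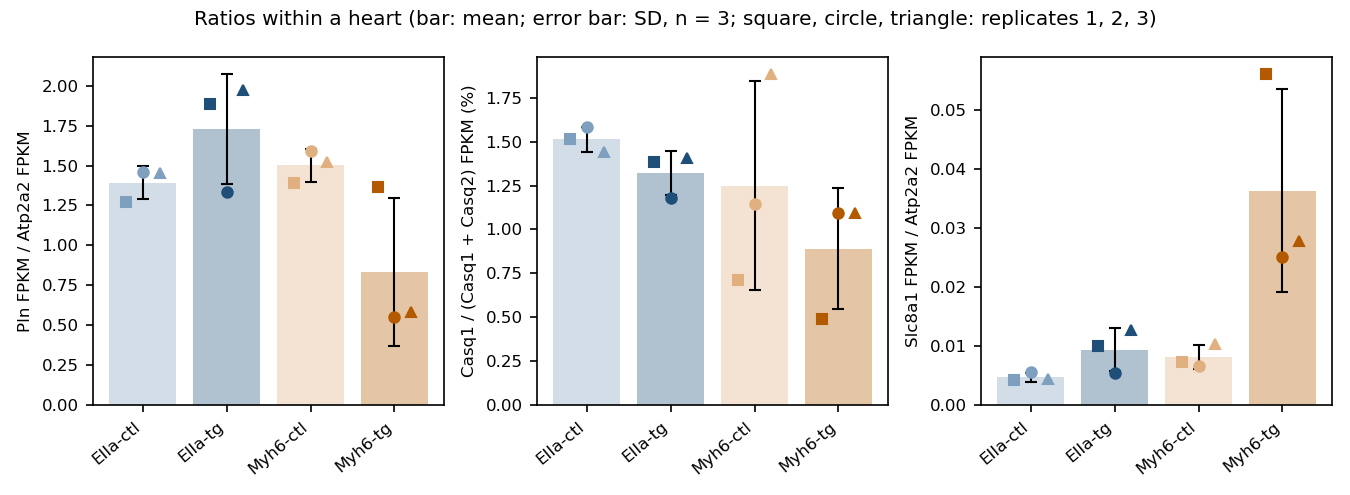
Ratios of FPKM within each heart, with bars at the mean, error bars of 1 SD (n = 3) and a symbol per heart. The Pln to Atp2a2 ratio is lowest in Myh6-tg replicates 2 and 3 (0.547 and 0.579), the Casq1 share lies between 0.489% and 1.89%, and the Slc8a1 to Atp2a2 ratio is highest in the 3 Myh6-tg hearts.

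The release channel and the proteins around it moved less evenly. Ryr2 (chromosome 13, 11553102 to 12106945), the channel itself, had 623, 469 and 597 CPM in EIIa-ctl and fell to 218, 394 and 203 CPM in EIIa-tg hearts, or 48.3% of the control mean (log2 fold change -1.05, SE 0.26, adjusted p = 0.0322). In Myh6-ctl hearts it had 565, 355 and 483 CPM, and in Myh6-tg hearts 825, 175 and 157 CPM (-0.28, SE 0.62, adjusted p = 0.790). Replicate 1 of Myh6-tg was above every control and replicates 2 and 3 were below every control. Without replicate 1 the value was -1.50 (adjusted p = 0.00537).

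Trdn (chromosome 10, 33080554 to 33476709), which links calsequestrin to the channel, lay near its controls except in Myh6-tg replicate 1. It had 131, 121 and 126 CPM in EIIa-ctl and 108, 117 and 114 CPM in EIIa-tg hearts (log2 fold change -0.16, SE 0.09, adjusted p = 0.226), and 129, 114 and 139 CPM in Myh6-ctl and 206, 102 and 106 CPM in Myh6-tg hearts (0.12, SE 0.29, adjusted p = 0.813). Jph2 (chromosome 2, 163336242 to 163397993), which tethers the store to the surface membrane, fell in EIIa-tg hearts from 333, 285 and 345 CPM to 194, 265 and 163 CPM (-0.63, SE 0.18, adjusted p = 0.0484). In Myh6 hearts it was at 295, 204 and 262 CPM in controls and at 225, 184 and 162 CPM in transgenic hearts, which overlapped (-0.42, SE 0.22, adjusted p = 0.226).

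Slc8a1 (chromosome 17, 81373105 to 81738377), the exchanger that removes calcium from the cell, had the narrowest range of the 10 among EIIa-ctl hearts. It had 177 CPM in each EIIa-ctl heart and 172, 163 and 147 CPM in EIIa-tg hearts (log2 fold change -0.14, SE 0.09, adjusted p = 0.313). In Myh6-ctl hearts it had 233, 188 and 181 CPM, and in Myh6-tg hearts 662, 174 and 145 CPM (0.70, SE 0.55, adjusted p = 0.407). Replicate 1 of Myh6-tg was high and the other transgenic hearts lay below all controls, and without replicate 1 the value was -0.34 (adjusted p = 0.230). Relative to the pump, the Slc8a1 to Atp2a2 ratio of FPKM was 0.00465 ± 0.000748 (SD, n = 3) for EIIa-ctl and 0.00933 ± 0.00363 for EIIa-tg, and it was 0.00802 ± 0.00203 for Myh6-ctl and 0.0363 ± 0.0173 for Myh6-tg. The EIIa groups overlapped, with EIIa-tg replicate 2 (0.00544) below EIIa-ctl replicate 2 (0.00550). The lowest Myh6-tg heart (0.0250) was above the highest Myh6-ctl heart (0.0103). These ratios are descriptions that were not tested.

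Camk2d (chromosome 3, 126596302 to 126846326), the main CaM kinase II of the heart, fell in EIIa-tg hearts from 156, 122 and 142 CPM to 100.5, 102 and 86.0 CPM (log2 fold change -0.55, SE 0.12, adjusted p = 0.0251). It had 131, 125 and 103 CPM in Myh6-ctl and 158, 115 and 109.6 CPM in Myh6-tg hearts (0.09, SE 0.21, adjusted p = 0.800). The Myh6 groups overlapped.

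Whether the models differed was tested over all 12 hearts, as the change in Myh6-tg minus the change in EIIa-tg hearts. Of the 10 genes 0 passed by edgeR, against 3.92% of the 15929 genes tested, and 4 had an unadjusted p under 0.05 (19.4% of genes tested did). These were Hrc (difference -2.32 on the log2 scale, SE 0.78, adjusted p = 0.125), Pln (-1.73, SE 0.72, adjusted p = 0.211), Casq2 (0.84, SE 0.28, adjusted p = 0.128) and Camk2d (0.63, SE 0.24, adjusted p = 0.165). DESeq2 called Casq2 (and 8.26% of the genes it tested), and limma on FPKM called Casq2 and Camk2d (5.76%). The replicate block, with terms for the replicate numbers of both models, called Hrc (-2.62, adjusted p = 0.0414), against 3.17% of genes tested. No label pairs hearts by these numbers. Without Myh6-tg replicate 1 edgeR called Pln (-2.90, adjusted p = 0.00126) and Hrc (-3.54, adjusted p = 0.00142), against 10.6% of genes tested. Age, Cre line and treatment differ between the models and cannot be told apart.

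The controls of both models were compared for levels without an active transgene, Myh6-ctl at day 90 against EIIa-ctl at day 30. Age, Cre line and corn oil differ between these groups and cannot be told apart. Of the 10 genes 0 passed by edgeR, against 0.0334% of the 14990 genes tested. By DESeq2 0 passed, against 2.5% of genes, and by limma on FPKM 0, against 0.0479%. By edgeR 2 (Casq1 and Hrc) had an unadjusted p under 0.05 (11.3% of genes tested did). Casq1 had a difference of -0.74 on the log2 scale, Myh6-ctl minus EIIa-ctl (SE 0.24, adjusted p = 0.285), and Hrc had -0.57 (SE 0.24, adjusted p = 0.421). Pln, Casq1 and Casq2 (3 of 10) were lower in each Myh6-ctl heart than in any EIIa-ctl heart, against 8.73% of genes tested. Slc8a1 (1 of 10) was higher without overlap, at 181 to 233 CPM against 177 CPM, as were 8.72% of genes tested. These control hearts also enter the comparisons above.

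The 10 genes were also read relative to 8 contractile genes of cardiomyocytes (Tnnt2, Tnni3, Tnnc1, Actc1, Myl2, Myl3, Mybpc3 and Actn2) in the same heart. These 8 genes did not move together, with log2 fold changes from -0.90 to 0.09 in EIIa-tg and from -2.39 to 0.58 in Myh6-tg hearts. In Myh6-tg hearts Tnni3 (-2.39), Myl2 (-2.07) and Myl3 (-1.97) lay below Atp2a2 (-1.81). Actc1 (-0.71), Mybpc3 (-0.44), Tnnc1 (0.03), Tnnt2 (0.44) and Actn2 (0.58) lay above it. The mean of these 8 genes was 11.57 ± 0.12 log2 CPM (SD, n = 3) for EIIa-ctl, 11.06 ± 0.25 for EIIa-tg, 11.40 ± 0.32 for Myh6-ctl and 10.45 ± 0.75 for Myh6-tg. In EIIa-tg hearts Hrc (-0.81), Atp2a2 (-0.63), Ryr2 (-0.60) and Pln (-0.31) were lower relative to them than in any control heart (4 of 10, against 4.05% of genes tested), and Slc8a1 (0.36) and Trdn (0.35) were higher (2 of 10, against 48.3%). In Myh6-tg hearts Hrc (-3.00), Pln (-1.98) and Atp2a2 (-0.92) were lower (3 of 10, against 4.23%), and Casq2 (1.39), Slc8a1 (1.30), Camk2d (1.02) and Trdn (0.99) were higher (4 of 10, against 32.8%). Each of these 13 differences in mean log2 value, of 20 tested, has p = 0.1 by two-sided exact permutation (adjusted p = 0.154), and the other 7 overlapped.

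**Figure D4:**
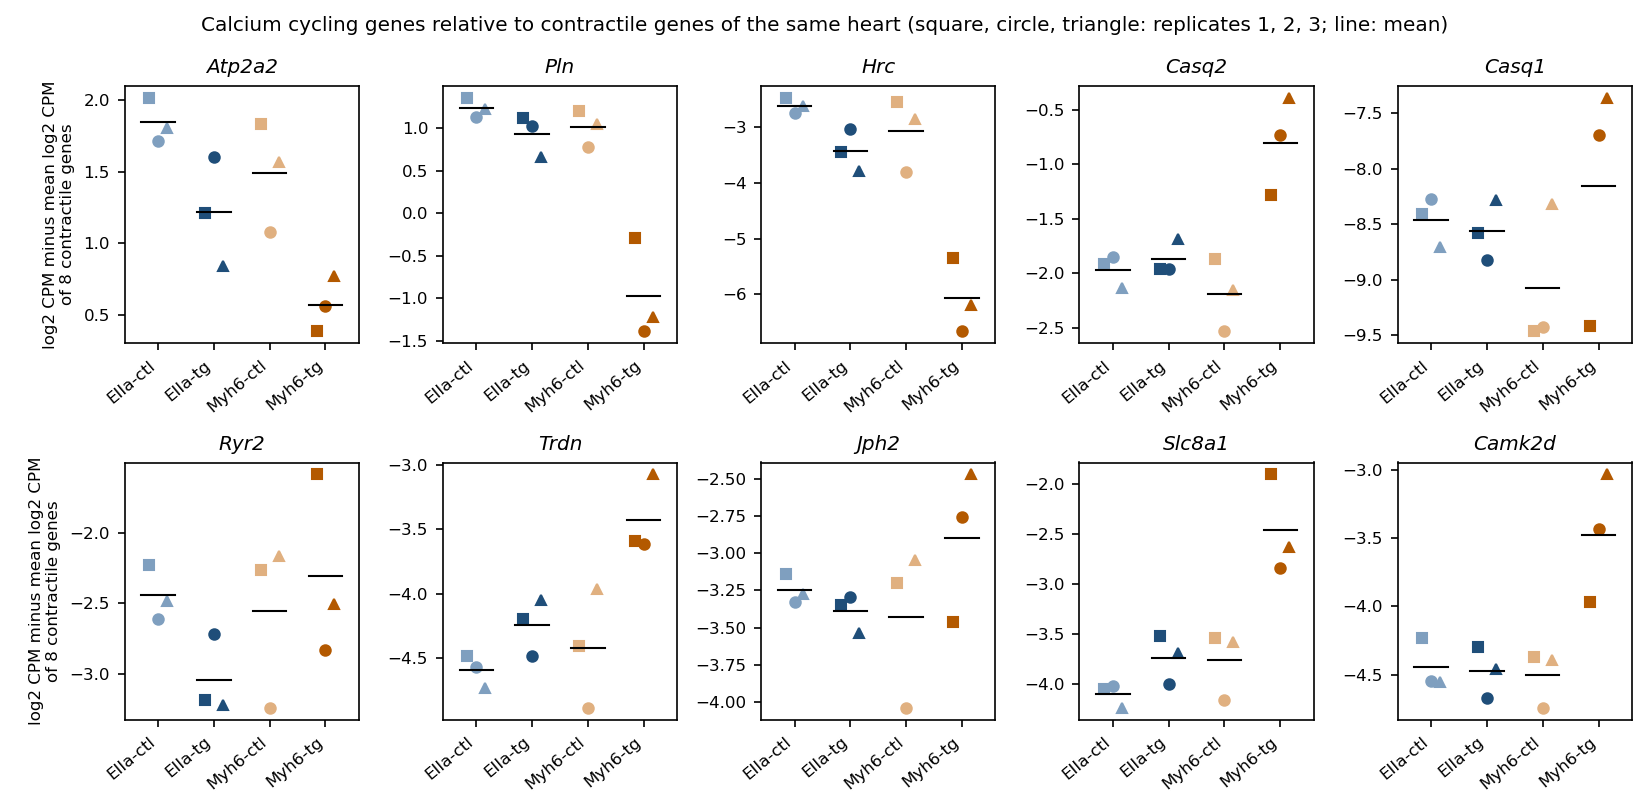
Each panel plots the log2 CPM of 1 gene minus the mean log2 CPM of 8 contractile genes in the same heart, with a symbol per heart and a line at the mean of 3 hearts (the axes differ between panels). In Myh6-tg hearts Hrc, Pln and Atp2a2 lie below and Casq2, Slc8a1, Camk2d and Trdn above every Myh6-ctl heart, while Ryr2, Casq1 and Jph2 overlap.

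Markers of other cells moved with the groups, and their part in these results was not tested. Of the 8 contractile genes 1 fell in EIIa-tg and 3 in Myh6-tg hearts (median log2 fold changes -0.56 and -0.58). The 6 fibroblast markers summed to between 1176 and 1560 CPM for EIIa-ctl, 2032 and 2955 for EIIa-tg, 1562 and 2002 for Myh6-ctl, and 2843 and 6574 for Myh6-tg, and 2 and 4 of them rose in the respective models. The 5 leukocyte markers summed to between 301 and 473 CPM for EIIa-ctl and 672 and 863 CPM for EIIa-tg, where all 5 rose (median log2 fold change 1.04). They summed to between 583 and 1047 CPM for Myh6-ctl and 593 and 1487 CPM for Myh6-tg (median 0.15). Of the 5 endothelial markers 3 fell in EIIa-tg hearts (medians -0.46 and, in Myh6-tg, -0.73), and of the 5 smooth muscle and pericyte markers 1 fell in Myh6-tg hearts (medians -0.08 and -0.13). Of the skeletal muscle markers 1 rose (Tnnt3) and 1 fell (Cacna1s) in each model. The neural marker Slc17a7 rose in EIIa-tg and fell in Myh6-tg hearts, and the 4 brown adipocyte markers summed to at most 37.5 CPM. The 5 atrial markers summed to between 116 and 356 CPM for EIIa-ctl, 501 and 781 for EIIa-tg, 153 and 1816 for Myh6-ctl, and 4187 and 6522 for Myh6-tg. Of these 5, 2 were tested in the EIIa model, where Nppa was called higher, and 3 in the Myh6 model, where Myl4 was. Bmp10 was at 0 in all EIIa and Myh6-ctl hearts. Of all genes tested 8.65% rose and 8.3% fell in EIIa-tg hearts, and 8.96% rose and 9.38% fell in Myh6-tg hearts.

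Of other genes of calcium handling, 55 in 6 roles were read from the same fits. In EIIa-tg hearts 2 of the 49 tested rose and 4 fell (8.65% of all genes tested rose and 8.3% fell), with a median log2 value of 0.02. In Myh6-tg hearts 1 of 49 rose and 1 fell (8.96% of all genes tested rose and 9.38% fell), with a median of 0.03. Tmem38b, which encodes a potassium channel of the store membrane, rose in both models. It went from 27.4, 28.7 and 26.8 to 52.6, 36.4 and 44.2 CPM in EIIa hearts (log2 fold change 0.68, SE 0.14, adjusted p = 0.0214) and from 32.9, 41.9 and 30.4 to 65.0, 58.2 and 59.4 CPM in Myh6 hearts (0.79, SE 0.18, adjusted p = 0.0222). Its relative Tmem38a had -0.59 (adjusted p = 0.0572) in EIIa-tg and -0.87 (adjusted p = 0.265) in Myh6-tg hearts.

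Among kinases and phosphatases, Camk2a fell in Myh6-tg hearts from 34.2, 32.3 and 25.6 CPM to 6.23, 0.304 and 2.54 CPM (log2 fold change -3.35, SE 0.82, adjusted p = 0.0292), and it had 0.10 (adjusted p = 0.885) in EIIa-tg hearts. The difference between the models was -3.44 (SE 0.97, adjusted p = 0.0724), which did not pass. Camk2b fell in EIIa-tg hearts (-0.97, adjusted p = 0.0470) and had -1.30 (adjusted p = 0.0637) in Myh6-tg hearts. Rcan1, an inhibitor of calcineurin whose transcription calcineurin itself drives, rose in EIIa-tg hearts from 57.4, 72.3 and 58.2 CPM to 150, 101 and 156 CPM (1.11, adjusted p = 0.0166) and had 0.56 (adjusted p = 0.210) in Myh6-tg hearts.

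Among partners of the release channel, Asph, whose locus encodes the channel partner junctin, fell in EIIa-tg hearts (log2 fold change -0.36, adjusted p = 0.0342) and had -0.50 (adjusted p = 0.161) in Myh6-tg hearts. Fkbp1b, which encodes the stabilizing protein FKBP12.6, had 1.41 (adjusted p = 0.0583) in Myh6-tg hearts, from 0.905, 0.932 and 1.46 CPM to 4.18, 2.54 and 2.10 CPM. Ryr3, a release channel of other tissues, had 20, 11 and 54 counts in Myh6-ctl and 24, 310 and 525 counts in Myh6-tg hearts (3.27, adjusted p = 0.0557), and the skeletal channel Ryr1 had at most 37 counts in any heart.

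Among regulators of the pump, sarcolipin (Sln), an inhibitor found mainly in atria, had 0, 39 and 70 counts in the 3 Myh6-tg hearts and at most 10 in any other. It was too low to be tested within either model. Strit1, listed as Gm34302, encodes a small peptide that activates the pump and had 30, 8 and 21 counts in Myh6-ctl and 0 in each Myh6-tg heart, and it was not tested there. Of the other pumps, the skeletal Atp2a1 had at most 43 counts in any heart, and Atp2a3, Atp2b1 and Atp2b4 did not pass in either model.

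Of the genes at the membranes, Dysf, a membrane repair gene of muscle, fell in EIIa-tg hearts (log2 fold change -0.57, adjusted p = 0.0216) and had -0.19 (adjusted p = 0.727) in Myh6-tg hearts. Letm1 of the inner mitochondrial membrane fell in EIIa-tg hearts (-0.73, adjusted p = 0.0264) and had -0.60 (adjusted p = 0.0549) in Myh6-tg hearts. Mcub, which encodes an inhibitory subunit of the mitochondrial calcium uniporter, had 0.72 (adjusted p = 0.0532) and 0.66 (adjusted p = 0.109), and the mitochondrial exchanger Slc8b1 had 0.32 (adjusted p = 0.176) and 0.68 (adjusted p = 0.0545). The store sensor Stim1 had -0.22 (adjusted p = 0.192) in EIIa-tg and 0.57 (adjusted p = 0.0806) in Myh6-tg hearts, and Stim2 and Orai3 did not pass in either model.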

How the data were processed

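RNA-seq of 12 mouse hearts was analysed from the tables that the authors deposited, 1 of counts (whole reads per gene, not normalized) and 1 of FPKM (fragments scaled by transcript length and library size, computed by the authors). Reads were mapped with HISAT2 to GRCm38 according to the methods, and the processing notes of the submitters list HISAT2 2.0.4 and StringTie 2.2.1 beside the builds mm10 and GRCm39. Whether counting used strand is not given in the sources used here. Positions are from GENCODE M21 (GRCm38), which held 22022 of the 25171 loci, and 3135 loci are unnamed. The transgene was not analysed here.

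Counts were tested with edgeR 4.0.16 in R 4.3.3 (filterByExpr with the group, TMM, estimateDisp, glmQLFit and glmQLFTest) on the 6 hearts of a comparison, and on all 12 for the difference between models. SE is the absolute log2 fold change divided by the square root of F. Ratios within hearts were compared by exact permutation over 20 splits. p-values measure the spread between these mice. Analysis scripts were tested on simulated counts.

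The 10 genes, the marker lists and the 55 related genes were chosen with earlier results of these data known. All 10 were named, with Sln, Strit1, Fkbp1b, Ryr1, Atp2a1, Tmem38a and the 3 related genes of each role with the lowest adjusted p in either model, checks of labels, and, for Atp2a2 and Casq1, the 3 genes of most similar level.

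Alternatives were DESeq2 1.42.0, RLE and upper quartile factors, total counts alone, removal of mt- genes, no count filter, a minimum of 1 CPM in 3 hearts, bias-adjusted quasi-likelihood, a replicate block, a Y-linked factor, the hearts without Y-linked counts, all 12 hearts in one fit, each heart left out, and limma 3.58.1 on log2(FPKM + 1) or log2(FPKM + 0.1) with an FPKM of at least 0.5 in 3 hearts or without a filter. The labels give replicate numbers and no pairs. Deviations from the group mean of same-numbered Myh6-ctl and Myh6-tg hearts were correlated across genes at 0.28, 0.18 and 0.17. In EIIa hearts the values were 0.06, -0.07 and -0.05. Replicate 1 of each group is also the heart with Y-linked counts, so these values cannot decide whether the numbers pair the hearts. The replicate block is given as an alternative only. Motifs were matched by exact letters. Figures were drawn with matplotlib 3.10.9.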

Additional observations from a re-analysis of the deposited data

How the results depend on the processing

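The count of the 10 genes that fell in EIIa-tg hearts was 5, with 17.0% of all genes tested called. It was 8 with DESeq2 (20.3%) and 7 without a count filter (13.3%). It was 4 with upper quartile factors (17.2%) and on FPKM with a pseudocount of 0.1 (23.6%), and 3 with a Y-linked factor (11.3%). It was 0 with the replicate block, with all 12 hearts in one fit, in the hearts without Y-linked counts, on FPKM without a filter, and at the thresholds of the methods. Of all genes the replicate block then called 1 of 14908, the 12 hearts 227 of 15929, the hearts without Y-linked counts 0 of 15030 and FPKM without a filter 1 of 19490, and the value of Hrc was -1.33, -1.24, -1.09 and -1.12. The labels do not say whether replicate numbers pair the hearts. With a heart left out the count ranged from 0 to 8. The count in Myh6-tg hearts was 3, with 18.3% of all genes tested called. It was 4 with total counts alone (26.2%) and on FPKM with a pseudocount of 1 (32.7%), of 0.1 (32.4%) or of 1 without a filter (16.9%). Casq2 was added there (adjusted p from 0.0172 to 0.0313). The count was also 4 in the hearts without Y-linked counts (21.1%), with Ryr2 added (-1.34, adjusted p = 0.0114). It was 0 at the thresholds of the methods and 0 to 4 with a heart left out. The replicate block left it at 3 (20.9%). For the difference between models the block gave 1 (Hrc, -2.62, adjusted p = 0.0414), with 3.17% of all genes tested called. The count for that difference (0, with 3.92% of all genes tested called) was also 1 with DESeq2 (8.26%). It was 2 with total counts alone (3.79%) and in the hearts without Y-linked counts (3.26%). It was also 2 on FPKM with a pseudocount of 1 (5.76%), of 0.1 (4.87%) or of 1 without a filter (2.94%). It ranged from 0 to 2 with a heart left out. The block changed no other count. For the controls the count was 0 throughout, and 0 with any heart left out. The cause was not tested.

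With total counts alone the median of all genes was 0.21 in EIIa-tg and 0.43 in Myh6-tg hearts, and on FPKM with a pseudocount of 0.1 it was 0.20 and 0.43. All 10 genes were below that median in EIIa-tg hearts under every setting that kept all 6 hearts, and total counts alone called Atp2a2 and Pln in place of Casq1 and Jph2. On these scales Slc8a1 (0.049 by total counts, 0.028, 0.030 and 0.028 on FPKM with a pseudocount of 1, of 0.1 and of 1 without a filter) and Trdn (0.041, and 0.0043, 0.0044 and 0.0043) changed sign in EIIa-tg hearts, and Ryr2 (0.033 by total counts) and Casq1 (0.34, and 0.27, 0.35 and 0.27 on FPKM) in Myh6-tg hearts, while Trdn in the controls became -0.11 on each FPKM scale. In the hearts without Y-linked counts Slc8a1 (-0.21), Camk2d (-0.026) and Trdn (-0.28) changed sign in Myh6-tg hearts, as did Ryr2 (-0.50), Slc8a1 (-0.018) and Trdn (-0.19) in the difference between models. With a heart left out, the values that changed sign ranged from -1.50 to 0.10 (Ryr2), -0.21 to 0.20 (Casq1), -0.34 to 1.06 (Slc8a1), -0.10 to 0.19 (Camk2d) and -0.29 to 0.30 (Trdn) in Myh6-tg hearts, from -0.45 to 1.14 (Ryr2), -0.20 to 1.19 (Slc8a1) and -0.14 to 0.45 (Trdn) in the difference, and from -0.055 to 0.094 (Trdn) in the controls. The log2 Pln to Atp2a2 ratio differed by 0.19 to 0.47 in EIIa and by -1.41 to -0.75 in Myh6 hearts, and the Casq1 share by -0.23 to -0.12 and by -0.63 to -0.04 percentage points. With 3 hearts a group, outliers could not be tested.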

Other observations

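Genes outside the 10 were ranked by the similarity of their log2 CPM to Atp2a2 over the 12 hearts, among 10368 genes with a mean of at least 5 CPM. The 3 most similar were Trmt2b, a tRNA methyltransferase gene (Pearson's r = 0.996), Dlst, which encodes a subunit of the 2-oxoglutarate dehydrogenase complex (0.995), and Ift81 (0.994). These are descriptions without a test, since the 12 hearts share 4 groups and their scaling. Dlst had 525, 434 and 514 CPM in EIIa-ctl, 259, 353 and 216 in EIIa-tg, 456, 318 and 315 in Myh6-ctl and 207, 124 and 110 in Myh6-tg hearts, so that EIIa-tg replicate 2 was again the transgenic heart nearest its controls. Ift81, a gene of cilia, lies upstream of Atp2a2 on the same strand of chromosome 5, with a gap of 47979 bases between them. It had 56.6, 39.6 and 50.03 CPM in EIIa-ctl, 17.9, 29.6 and 13.3 in EIIa-tg, 41.3, 27.8 and 23.3 in Myh6-ctl and 12.5, 6.57 and 6.77 CPM in Myh6-tg hearts.

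The genes most similar to Casq1 were Hspa2, a heat shock protein gene (r = 0.857), N4bp2 (0.854) and Ccdc141 (0.846). Among the 10 genes themselves the highest values of r were those of Pln with Hrc (0.989) and of Atp2a2 with Hrc (0.968), and Slc8a1 with Trdn had 0.900, where Myh6-tg replicate 1 was the highest heart in both. Casq2 with Hrc had -0.14.

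Sqstm1 had 375, 399 and 352 CPM in EIIa-ctl, 1206, 785 and 1257 in EIIa-tg, 446, 941 and 605 in Myh6-ctl and 1781, 1998 and 2006 in Myh6-tg hearts. The EIIa-tg heart with the lowest Sqstm1, replicate 2, also had the highest Atp2a2, Pln, Ryr2, Jph2 and Hrc of that group.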
